A study of Homo sapiens with 15 samples.

Results

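The genes described here encode the proteins of the cytosolic ribosome, measured in VCaP cells, a human prostate cancer line from a vertebral metastasis that carries the TMPRSS2-ERG fusion and the androgen receptor. Members were the genes whose symbol has the form of a large or small subunit protein (RPL or RPS with a number, RPLP1, RPLP2 and close paralogs such as RPL7L1) and whose probe was detected on each of the 15 arrays at a detection p under 0.05. RPS27A, RPS4Y1, RPS4Y2 and pseudogenes were left out by the rule. Of 75 matching symbols, 70 genes met it, 44 of the large and 26 of the small subunit, among 12744 genes tested. Some other subunit proteins were not analysed here.

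The cells fell into 5 groups of 3 arrays: cells transfected with a non-targeting siRNA, with ERG siRNA 1 or with ERG siRNA 2 (RNA taken at 72 h), and cells given DMSO or WP1130 (24 h for WP1130). WP1130 is a small-molecule inhibitor of deubiquitinating enzymes. Its dose and the times of both control groups were not given in the sources used here. All groups were the same cell line in medium with serum, and the labels do not say whether the 3 arrays of a group were separate cultures, so the p-values reflect only how far these arrays spread, which may be technical. Both ERG siRNAs were set against the same 3 non-targeting arrays. ERG, the target, was lower by 0.74 ± 0.16 (log2, SE) with the mean of both siRNAs (limma adjusted p = 0.0038). It was also lower with WP1130 against DMSO, by 0.54 ± 0.18 (adjusted p = 0.020). The 2 effects on ERG were not called different (0.20 ± 0.24, adjusted p = 0.51). Its probe was dim, with group means from 5.22 (ERG siRNA 2) to 6.30 (DMSO).

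A ribosome joins a small subunit, which reads the mRNA, to a large subunit, which forms the peptide bond and holds the exit tunnel, and each subunit is a core of rRNA with many proteins. The mRNAs of nearly all these proteins begin with a C followed by a run of pyrimidines (the 5′ terminal oligopyrimidine, or TOP, motif), through which mTOR controls their translation. Free ribosomal proteins are degraded by the proteasome, and RPL5 and RPL11, bound to 5S rRNA, inhibit MDM2. ERG is an ETS factor, and ETS factors bind DNA around the core GGAA.

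The promoters of genes whose level changed in the results below are printed here with both features, since ETS cores and TOP runs were the most frequent of the motifs searched among the members. RefSeq promoters (GRCh38.p14) were matched for 60 of the 70 members. Each sequence runs 5′ to 3′ from 130 bases before the annotated start to 20 bases from it on, in lower case. Capitals mark CCGGAA on either strand (CCGGAA or TTCCGG) and the pyrimidine run that starts with C at the annotated start, and runs that overlap are joined. The genes lower with the ERG siRNAs that had a promoter come at the top.
RPL28, chr19:55385802-55385951, forward strand: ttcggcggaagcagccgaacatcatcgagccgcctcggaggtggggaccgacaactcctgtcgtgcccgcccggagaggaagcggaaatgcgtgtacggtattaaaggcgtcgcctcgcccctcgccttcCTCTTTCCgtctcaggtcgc
RPL29, chr3:51995876-51996025, reverse strand: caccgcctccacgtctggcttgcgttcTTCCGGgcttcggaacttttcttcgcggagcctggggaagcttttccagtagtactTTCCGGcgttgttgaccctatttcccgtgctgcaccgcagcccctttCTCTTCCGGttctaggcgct
RPL36, chr19:5690165-5690314, forward strand: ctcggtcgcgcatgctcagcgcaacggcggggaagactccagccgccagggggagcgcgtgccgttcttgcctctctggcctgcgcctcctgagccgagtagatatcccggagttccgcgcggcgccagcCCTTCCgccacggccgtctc
RPS23, chr5:82278335-82278484, reverse strand: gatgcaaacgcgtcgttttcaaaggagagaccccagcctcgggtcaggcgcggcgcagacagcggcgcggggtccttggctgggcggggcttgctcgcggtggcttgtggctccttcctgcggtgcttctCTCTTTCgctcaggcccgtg
RPS28, chr19:8321366-8321515, forward strand: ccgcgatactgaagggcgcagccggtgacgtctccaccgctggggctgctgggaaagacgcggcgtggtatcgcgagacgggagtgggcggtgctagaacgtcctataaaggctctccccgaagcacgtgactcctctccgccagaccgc
Genes that changed with WP1130, RPL22, RPL13A and RPL34 as falls and RPS16 and RPL7L1 as rises under quantile normalization, follow.
RPL22, chr1:6199576-6199725, reverse strand: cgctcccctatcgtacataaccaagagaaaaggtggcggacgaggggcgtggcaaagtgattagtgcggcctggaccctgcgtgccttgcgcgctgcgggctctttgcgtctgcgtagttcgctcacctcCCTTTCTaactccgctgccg
RPL13A, chr19:49487478-49487627, forward strand: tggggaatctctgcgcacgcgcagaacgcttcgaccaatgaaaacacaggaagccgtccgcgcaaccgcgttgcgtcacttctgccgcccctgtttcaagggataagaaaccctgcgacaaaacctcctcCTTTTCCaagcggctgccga
RPL34, chr4:108620446-108620595, forward strand: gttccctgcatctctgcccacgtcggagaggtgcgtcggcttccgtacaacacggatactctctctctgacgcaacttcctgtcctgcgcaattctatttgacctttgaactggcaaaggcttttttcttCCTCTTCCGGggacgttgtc
RPS16, chr19:39435930-39436079, reverse strand: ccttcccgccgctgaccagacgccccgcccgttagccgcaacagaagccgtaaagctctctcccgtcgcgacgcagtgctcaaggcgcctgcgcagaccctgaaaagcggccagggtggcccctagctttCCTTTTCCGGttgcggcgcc
RPL7L1, chr6:42879486-42879635, forward strand: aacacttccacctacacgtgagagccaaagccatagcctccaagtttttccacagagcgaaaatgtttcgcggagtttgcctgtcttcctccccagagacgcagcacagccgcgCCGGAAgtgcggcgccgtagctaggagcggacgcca
RPL29 and RPL34 hold an ETS core that overlaps the pyrimidine run at the start, and so does RPS16, whereas RPL22 and RPL13A show a run and no core in this window. RPL7L1, a paralog of RPL7, has a core and no run. RPS28 has no core in the bases shown and no run at the annotated start, but a run begins within 10 bases of it.

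In the window of 250 bases before to 50 after the start, CCGGAA on either strand was found in 34 of 60 member promoters (56.7%), against 28.2% of 10131 promoters of tested genes and 17.6% of 27305 promoters in all. A C at the start followed by at least 4 pyrimidines was found in 40 of 60 (66.7%), against 5.36% of the tested genes. A run of this kind within 10 bases of the start was found in 51 of 60 (85%), against 33.6%. Searched over both strands, the YY1 motif AAGATGGC stood in 10% of member promoters against 5.15%, and TATAAA in 6.67% against 6.58% of the tested genes. ETS cores and TOP runs can overlap, as the sequences show. Of the 5 genes lower with the ERG siRNAs that had a promoter, 2 held the ETS core (RPL28, upstream of the bases shown, and RPL29), and of 15 genes lower with WP1130 11 held it. Among members called in neither comparison, 21 of 39 held it. A match describes these letters and is no evidence of binding.

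Member probes were among the brightest on the array. Their mean normalized intensity ran from 6.35 (RPL36A) to 14.64 (RPL41) on the log2 scale with a median of 13.79, while the median over all genes was 7.05. Brightness depends on the probe, so the values do not rank transcripts. There were 43 members among the 100 brightest genes, and 47 lay over log2 13, as did 134 genes in all. In raw units the member means reached 25592, and the brightest probe of an array stood between 23480 and 31026. The part that compression near the top of the scanner's range has in small changes was not tested. The SD between arrays of a group, pooled over groups, had a median of 0.068 over members and of 0.13 over all genes.

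**Figure D1:**
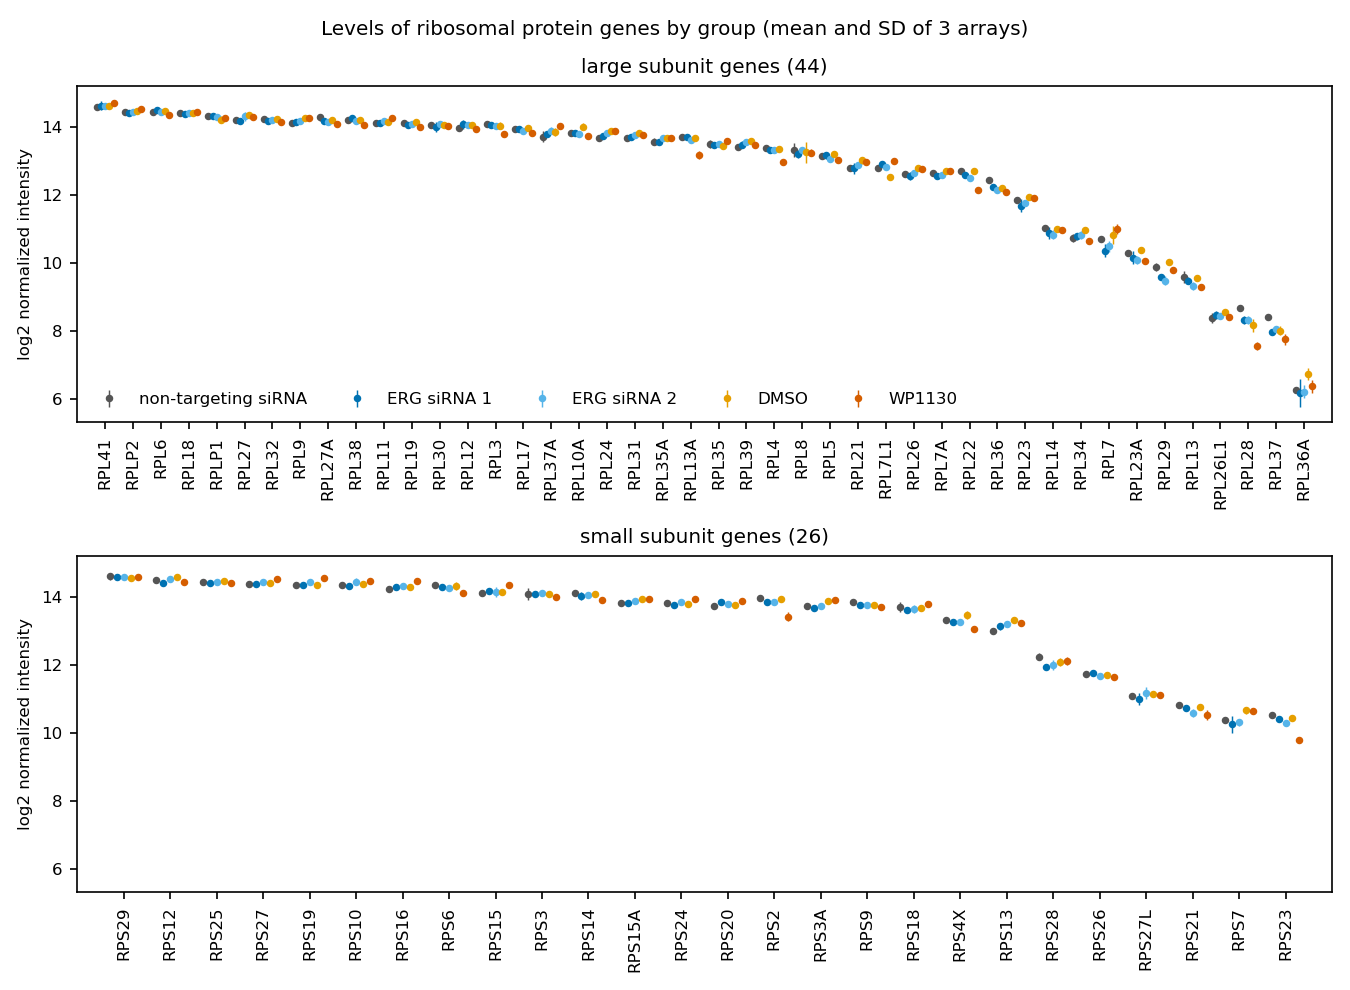
Mean log2 normalized intensity and SD of 3 arrays in each of 5 groups for 44 large (top) and 26 small (bottom) subunit genes, ordered by mean. Most genes lie over 13 in each group, and the shifts between groups are small beside the range of 6.35 to 14.64 between probes.

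RPL41, which encodes a very short basic peptide, read 14.64, 14.55 and 14.58 with the non-targeting siRNA and 14.65, 14.74 and 14.74 with WP1130. RPLP1, a protein of the acidic stalk that recruits elongation factors, read 14.31, 14.35 and 14.33 with the non-targeting siRNA and 14.32, 14.30 and 14.20 with WP1130. The arrays of these groups overlapped for RPLP1, while each WP1130 array of RPL41 lay above each non-targeting array. With DMSO, the control for WP1130, RPL41 read 14.65, 14.55 and 14.64. Against it RPL41 was not called (0.09, limma adjusted p = 0.32 in a fit over all probes). RPL36A, whose probe was the dimmest, read 6.63, 6.92 and 6.62 with DMSO and 6.19, 6.29 and 6.28 with the non-targeting siRNA.

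The arrays differed in total signal with treatment. The mean raw intensity per array was 392 to 459 in the first 4 groups and 305 to 315 with WP1130, while 18460 to 21220 probes were detected per array. Unscaled, the median member intensity was 13.74 to 13.95 (log2) on the first 12 arrays and 13.33 to 13.36 with WP1130. After quantile normalization, which gives each array the same distribution, it was 13.69 to 13.81 on all 15. After median scaling it was 13.56 to 13.86 on the first 12 arrays and 13.75 to 13.82 with WP1130. The direction of a shared member change with WP1130 therefore depends on the scaling, and the main counts are given under quantile normalization, under median scaling and with no scaling. Where no scaling is named, a value is from quantile normalization.

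**Figure D2:**
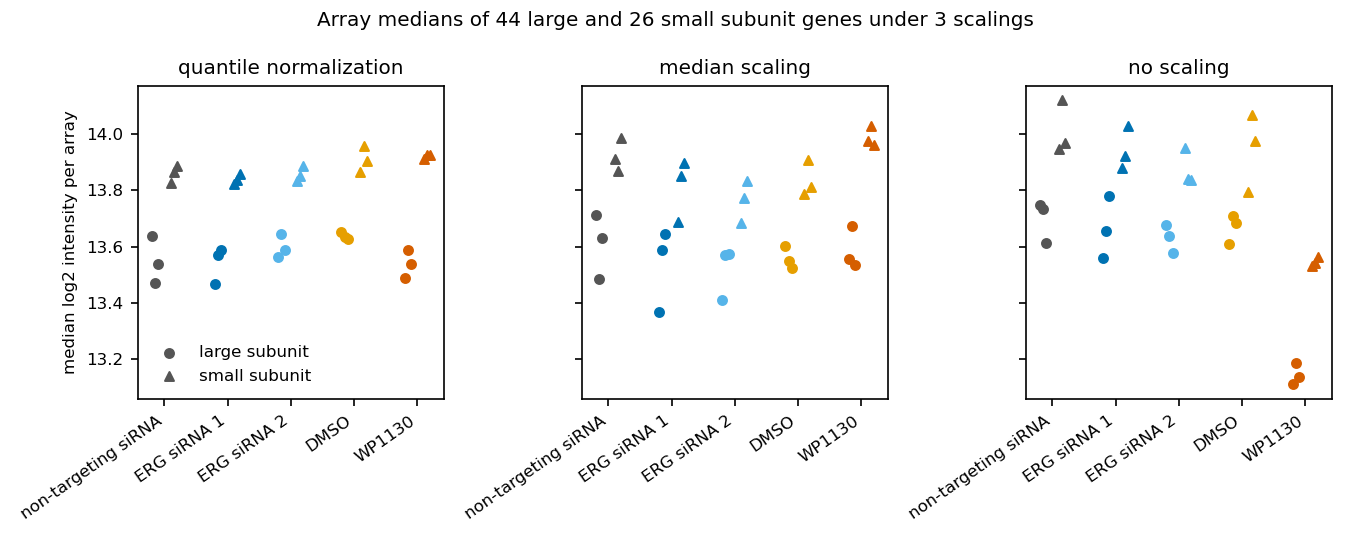
Median log2 intensity of the large (circles) and small (triangles) subunit genes on each of 15 arrays under quantile normalization, median scaling and no scaling. The 3 WP1130 arrays lie lowest only without scaling, and the large subunit median lies below the small subunit median on each array.

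The luminal identity of the cells was checked by markers. All 6 luminal genes with a probe, KRT8, KRT18, HOXB13, TMPRSS2, SLC45A3 and FOLH1, were detected on 15 arrays, and their summed raw intensity was 6613 to 7949 with the non-targeting siRNA, 13977 to 17269 with the ERG siRNAs, 8768 to 9539 with DMSO and 4210 to 4783 with WP1130. Of 6 fibroblast markers COL1A2, COL3A1 and PDGFRB were detected on 0 arrays, COL1A1 on 4, DCN on 7 and LUM on 15. Of 5 blood markers PTPRC and CD3E were detected on 0 arrays, HBB on 1, LYZ on 9 and CD14 on 15. Of the endothelial markers PECAM1 and CDH5 were detected on 0 arrays and VWF on 12. Where a marker had several probes, the count is that of the probe detected on most arrays.

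With ERG knocked down, 6 of 70 ribosomal protein genes fell and 0 rose. The falls were RPL37, RPL28, RPL29, RPS28, RPL36 and RPS23, which are 4 large and 2 small subunit genes, and ranged from 0.19 to 0.41 on the log2 scale. In limma's test, adjusted over 12744 genes, that is 8.57% of members against 20.2% of all genes called (9.58% of them lower, 10.7% higher). At an unadjusted p under 0.05, 2 members were higher and 12 lower. The share of all genes at that threshold is not given here, so these counts do not set members apart. The median change was −0.025 over members and −0.001 over all genes, and −0.025 in each subunit.

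RPL37, a zinc-binding protein of the large subunit, read 8.46, 8.41 and 8.4 (log2) with the non-targeting siRNA, 7.95, 8.0 and 7.95 with siRNA 1, and 8.07, 8.02 and 8.08 with siRNA 2. All 6 knockdown arrays lay below all 3 controls, and the change was −0.41 ± 0.075 (adjusted p = 0.0011). DMSO arrays read 7.99, 8.16 and 7.89, which is also below the non-targeting arrays. A second, dimmer RPL37 probe, with a mean of 6.55, was not called with the ERG siRNAs (−0.07, adjusted p = 0.54).

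RPL28, a large subunit protein that budding yeast lacks, read 8.70, 8.72 and 8.62 with the non-targeting siRNA, 8.20, 8.44 and 8.33 with siRNA 1 and 8.28, 8.47 and 8.23 with siRNA 2. The groups did not overlap, and the change was −0.36 ± 0.088 (adjusted p = 0.0088). The DMSO arrays, at 8.36, 8.15 and 7.98, lay below the non-targeting arrays too.

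RPL29, a basic protein also known to bind heparin, read 9.76, 9.94 and 9.96 with the non-targeting siRNA, 9.56, 9.52 and 9.70 with siRNA 1 and 9.36, 9.47 and 9.61 with siRNA 2. Each knockdown array lay below each control, with a change of −0.35 ± 0.073 (adjusted p = 0.0032), while DMSO arrays read 9.96, 10.09 and 10.03. Its other probe also fell, by 0.30 (adjusted p = 0.0077 in a fit over all probes).

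RPS28, which lies on the head of the small subunit and is mutated in some cases of Diamond-Blackfan anaemia, read 12.36, 12.18 and 12.20 with the non-targeting siRNA, 11.91, 11.89 and 12.06 with siRNA 1 and 12.06, 11.82 and 12.12 with siRNA 2. The groups did not overlap, and the change was −0.27 ± 0.084 (adjusted p = 0.031).

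RPL36 read 12.53, 12.40 and 12.39 with the non-targeting siRNA, 12.17, 12.25 and 12.27 with siRNA 1 and 12.20, 12.17 and 12.13 with siRNA 2. Its change of −0.24 ± 0.060 (adjusted p = 0.010) separated all knockdown from all control arrays, and its DMSO arrays (12.22, 12.23 and 12.18) lay with the knockdown arrays.

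RPS23, a protein of the decoding centre, read 10.46, 10.55 and 10.59 with the non-targeting siRNA, 10.48, 10.42 and 10.31 with siRNA 1 and 10.30, 10.32 and 10.25 with siRNA 2. Here the groups overlapped on 1 siRNA 1 array, and the change was −0.19 ± 0.062 (adjusted p = 0.042). The RPS23 call was lost when any of 8 of the 9 arrays was left out, that of RPS28 for 5 of 9 and that of RPL36 for 1 (non-targeting replicate 1), while RPL37, RPL28 and RPL29 remained called without each array in turn.

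**Figure D3:**
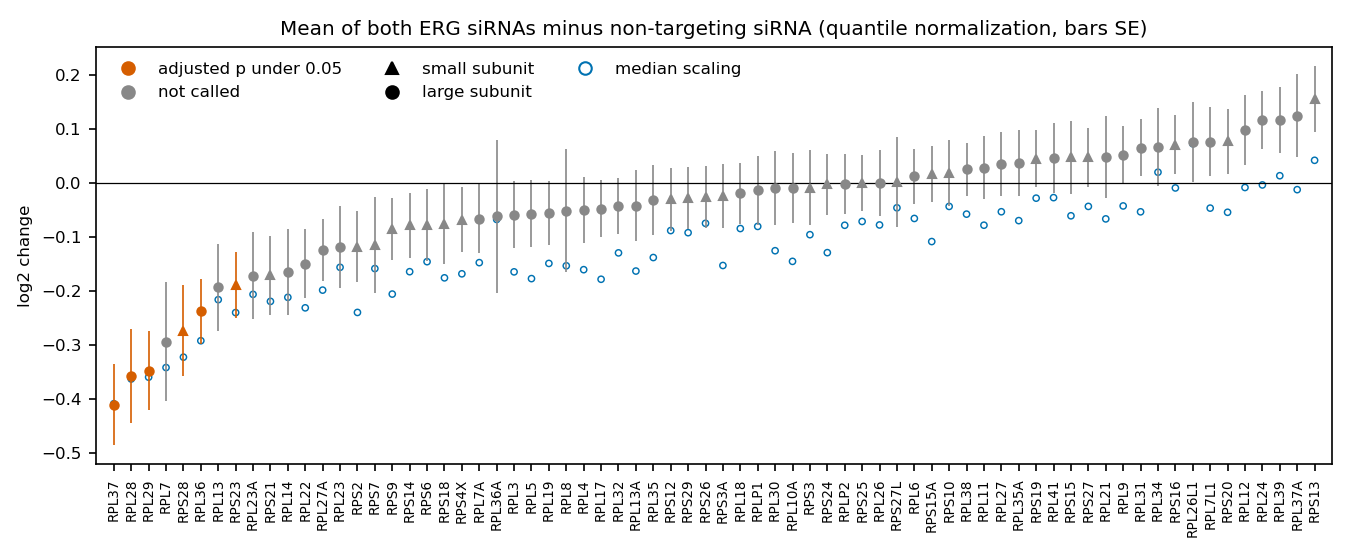
Log2 change of each of the 70 genes, mean of both ERG siRNAs minus the non-targeting siRNA, with SE bars under quantile normalization and open circles for median scaling; circles are large and triangles small subunit genes. The 6 called genes (orange) lie between −0.41 and −0.19, and median scaling moves most of the other genes down.

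Each siRNA alone gave fewer calls. With siRNA 1, RPL37, RPL28 and RPL29 fell and 0 members rose (4.29% against 13% of all genes), and with siRNA 2 RPL29, RPL37, RPL28, RPL36 and RPS23 fell and 0 rose (7.14% against 18.6%). At an unadjusted p under 0.05, 0 members were higher with siRNA 1 and 3 with siRNA 2, again without the share of all genes. Under median scaling siRNA 1 again gave 3 lower (13.4% of all genes called) and siRNA 2 gave 11 (19% of all genes), and with no scaling the counts were 1 (6.64%) and 0 (9.32%). Between the siRNAs, limma called 0 of 70 members, and 0 at an unadjusted p under 0.05, against 0.118% of all genes, and also 0 under median scaling (0.118%) and with no scaling (0.0235%). The largest difference between the siRNAs was 0.18.

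Under median scaling 11 members were lower and 0 higher with the mean of both siRNAs (15.7% against 20.7% of all genes), with a median of −0.117 over members and −0.026 over all genes, and all 6 genes named above were among them. With no scaling only RPL37 was called, at −0.38 (adjusted p = 0.026), against 11% of all genes, and RPL28 and RPL29 stood at −0.33 each (adjusted p = 0.056).

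The 6 calls lay among the dimmer probes. Of the 47 members over log2 13, 0 were called with the ERG siRNAs, against 5.97% of the 134 genes over 13, and 6 of the other 23 members were, against 20.4% of the 12610 genes at most log2 13. Across the 70 members, mean level and change had a Pearson r of 0.58, which is a description over genes that share arrays. Of 45 other probes of members, 6 were lower and 0 higher, and all 6 were among the 23 probes at most log2 11. In that fit, over 17078 probes with a symbol, 8.29% of all probes and 8.3% of those at most log2 11 were lower. A second RPL8 probe fell by 0.49 (adjusted p = 0.00041), for example, while the brighter RPL8 probe stood at −0.05 (adjusted p = 0.82).

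The control groups differed from each other in some of the same genes. With DMSO, 4 members were lower than with the non-targeting siRNA and 3 higher (10% against 24.7% of all genes): RPL28 by −0.52 ± 0.10 (adjusted p = 0.0016), RPL37 by −0.41 ± 0.086 (adjusted p = 0.0027), RPL7L1 by −0.25 and RPL36 by −0.23, and RPL24, RPS13 and RPL36A by 0.22, 0.31 and 0.47. This comparison uses the same 3 non-targeting arrays as the knockdown, so for RPL28, RPL37 and RPL36 a lower value against these arrays was also measured without an ERG siRNA. RPL29, RPS28 and RPS23 were not called between the controls. Of the calls, that of RPL36A was lost in 6 of 6 fits that left out 1 array. Those of RPL36 and RPL7L1 were lost in 4 each and that of RPL24 in 2, while RPL28, RPL37 and RPS13 remained called in each. Under median scaling DMSO gave 1 higher and 5 lower members (24.8% of all genes called), and with no scaling RPL36A was higher and RPL28 lower (14.4%).

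With WP1130, 18 members fell and 4 rose against DMSO. RPS23, RPL28, RPL22, RPL13A and RPS2 fell most, by 0.51 to 0.65 on the log2 scale, and RPL7L1, RPS15, RPS19 and RPS16 rose by 0.17 to 0.47. That is 31.4% of members against 59% of all genes called, and 56.7% of the 134 genes over log2 13. The median change was −0.055 over members, −0.104 over the large and −0.018 over the small subunit, and −0.120 over all genes. In the large subunit 12 genes fell and 1 rose, and in the small subunit 6 fell and 3 rose.

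RPS23 read 10.46, 10.39 and 10.49 with DMSO and 9.90, 9.74 and 9.76 with WP1130. The groups stood apart, with a change of −0.65 ± 0.071 (adjusted p = 1.5e-06). Median scaling gave −0.87 and no scaling −1.42.

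RPL28 read 8.36, 8.15 and 7.98 with DMSO and 7.68, 7.48 and 7.47 with WP1130. Its change of −0.62 ± 0.10 (adjusted p = 8.4e-05) came on top of a DMSO level that was already below that of the non-targeting siRNA.

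RPL22, an RNA-binding protein of the large subunit that also binds a small RNA of Epstein-Barr virus, read 12.75, 12.63 and 12.74 with DMSO and 12.22, 12.12 and 12.10 with WP1130. No arrays overlapped, and the change was −0.56 ± 0.074 (adjusted p = 1.1e-05).

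RPL13A, known for its role in interferon-gamma translation control, read 13.78, 13.68 and 13.63 with DMSO and 13.31, 13.13 and 13.12 with WP1130. The change was −0.51 ± 0.075 (adjusted p = 3.0e-05). RPS2, at the mRNA entry of the small subunit, read 13.89, 13.94 and 14 with DMSO and 13.59, 13.31 and 13.40 with WP1130, a change of −0.51 ± 0.076 (adjusted p = 3.5e-05). In both genes each WP1130 array lay below each DMSO array.

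RPS4X, the X-linked small subunit protein, read 13.35, 13.57 and 13.50 with DMSO and 13.14, 13.04 and 13.04 with WP1130, without overlap (−0.40 ± 0.069, adjusted p = 0.00015). RPL4, which lines the exit tunnel, changed by −0.38 ± 0.071 (adjusted p = 0.00028). The other 11 falls lay between −0.31 and −0.15: RPL34, RPL23A, RPL10A, RPL13, RPL37, RPS21, RPL3, RPL29, RPS6, RPS14 and RPL38. Of these, RPL37 had overlapping groups. RPL10A, RPL13A, RPL22, RPL23A, RPL28, RPL34, RPL4, RPS2, RPS23 and RPS4X, 10 of the 18 falls, remained called when each of the 6 arrays was left out in turn, and without DMSO replicate 2 the number of falls was 11.

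RPL7L1 read 12.58, 12.52 and 12.53 with DMSO and 12.92, 13.06 and 13.07 with WP1130. The groups did not overlap, and the change was 0.47 ± 0.074 (adjusted p = 5.5e-05). Its other probe went the opposite way, from 11.09, 11.12 and 11.09 with DMSO to 10.12, 9.97 and 10.21 with WP1130 (−1.0, adjusted p = 4.3e-08), so the direction for RPL7L1 depends on the probe.

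RPS15 read 14.19, 14.14 and 14.15 with DMSO and 14.42, 14.32 and 14.35 with WP1130, a change of 0.21 ± 0.078 (adjusted p = 0.032). RPS19, the protein most often mutated in Diamond-Blackfan anaemia, read 14.38, 14.33 and 14.39 with DMSO and 14.54, 14.57 and 14.61 with WP1130, a change of 0.21 ± 0.061 (adjusted p = 0.0085). RPS16 read 14.35, 14.30 and 14.26 with DMSO and 14.48, 14.42 and 14.52 with WP1130, a change of 0.17 ± 0.062 (adjusted p = 0.026). In none of the 3 did the groups overlap. RPL7L1 and RPS19 remained called without each array in turn, whereas RPS15 lost its call without any of 5 arrays and RPS16 without any of 3, and a further RPS15 probe of like brightness stood at −0.12 (adjusted p = 0.24).

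**Figure D4:**
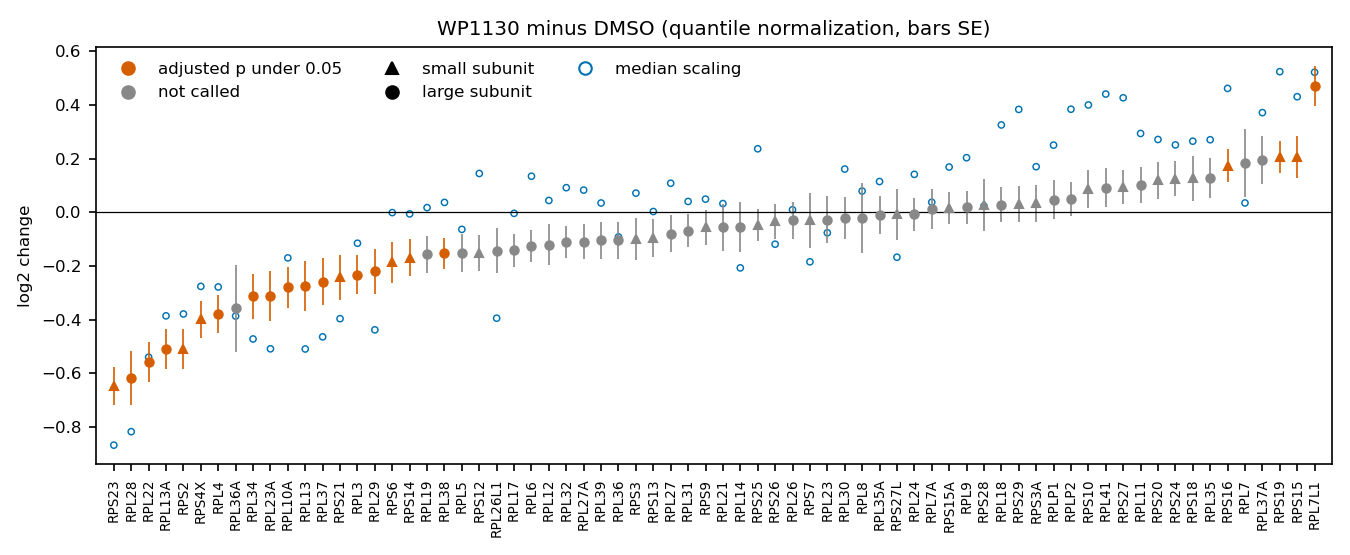
Log2 change of each of the 70 genes, WP1130 minus DMSO, with SE bars under quantile normalization and open circles for median scaling; circles are large and triangles small subunit genes. The called falls reach −0.65 (RPS23) and the rises 0.47 (RPL7L1), and median scaling lifts most of the genes on the right.

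The scaling set the balance of rises and falls. Under median scaling 19 members were higher and 15 lower with WP1130 (48.6% against 65.9% of all genes), with a median of 0.038 over members and −0.102 over all genes. In this scaling 9 large subunit genes rose and 11 fell, and 10 small subunit genes rose and 4 fell. Without scaling 59 were called lower and 0 higher (84.3% against 81.9% of all genes), with a median of −0.514 over members and −0.654 over all genes, and all 70 members stood below 0. With no scaling, the 4 risers above stood at −0.03 (RPL7L1), −0.12 (RPS15), −0.03 (RPS19) and −0.09 (RPS16).

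Across quantile normalization, median scaling, no scaling and the authors' processed values, 13 members were called lower each time: RPS23, RPL28, RPL22, RPL13A, RPS2, RPS4X, RPL4, RPL34, RPL23A, RPL13, RPL37, RPS21 and RPL29. They are 9 large and 4 small subunit genes. Over all genes, 31.7% were called lower in each of the 4 and 8.70% higher, and 0 members were higher in each. Median scaling and no scaling called 8 members in opposite directions.

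Groups of members by place in the ribosome differed in their counts with WP1130. Of 11 measured proteins of the small subunit head, 3 rose (RPS15, RPS16 and RPS19) and 0 fell, with a median change of 0.087. Of 8 measured proteins of its body and platform, 0 rose and 4 fell (RPS2, RPS6, RPS14 and RPS23), with a median of −0.13. Leaving out 1 array lost the calls of RPS6, RPS14 and RPS15 in 5 of 6 fits each, and that of RPS16 in 3. A second probe stood at −0.01 for RPS6 and −0.12 for RPS14, neither called in a fit over all probes. Under median scaling the head had 8 rises and 0 falls and the body 1 rise and 2 falls, and without scaling the head had 6 falls of 11 and the body 8 of 8. Of 8 proteins around the exit tunnel, 2 fell (RPL4 and RPL23A), and of the 3 measured stalk proteins 0 were called. Median scaling called 1 exit tunnel gene higher and 2 lower, and no scaling called all 8 lower. The stalk genes RPLP1, at 0.25 (adjusted p = 0.028), and RPLP2, at 0.38 (adjusted p = 0.00065), were called higher under median scaling, whereas 2 of the 3 stalk genes were called lower with no scaling. Under quantile normalization 37.1% of all genes were called lower and 21.9% higher. In either direction, median scaling called 65.9% of all genes and no scaling 81.9%.

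RPL5 and RPL11, which bind 5S rRNA and MDM2, were not called in either comparison under quantile normalization. With WP1130 RPL5 stood at −0.15 ± 0.071 (adjusted p = 0.082) and RPL11 at 0.10 ± 0.067 (adjusted p = 0.20). Under median scaling RPL11 was called higher, at 0.29 (adjusted p = 0.0035), and RPL5 stood at −0.06 (adjusted p = 0.54). With no scaling both were called lower, RPL5 at −0.62 (adjusted p = 5.3e-05) and RPL11 at −0.26 (adjusted p = 0.0498), and without background correction RPL5 was called at −0.15 (adjusted p = 0.024). Of 15 measured genes mutated in Diamond-Blackfan anaemia, 1 rose (RPS19) and 0 fell with WP1130, and 1 fell (RPS28) with the ERG siRNAs. The WP1130 counts turned with the scaling: 8 were higher and 0 lower under median scaling, and 0 higher and 10 lower with no scaling. With WP1130 59% of all genes were called under quantile normalization, 65.9% under median scaling and 81.9% with no scaling. With the ERG siRNAs 1 was lower under median scaling and 0 with no scaling. The shares of all genes called with the ERG siRNAs were 20.2% under quantile normalization, 20.7% under median scaling and 11% with no scaling.

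The median of large subunit probes lay 0.19 to 0.42 (log2) below that of small subunit probes on each array. The large set held 10 of the 13 members at most log2 11, and the cause of the gap was not tested. With WP1130 this gap was 0.42, 0.34 and 0.39, and with DMSO it was 0.21, 0.32 and 0.28. Each WP1130 array had a wider gap than each DMSO array, but 2 non-targeting arrays, at 0.39 and 0.35, and 1 siRNA 1 array, at 0.36, lay within the WP1130 range. After median scaling the WP1130 gaps were 0.42, 0.36 and 0.43 and the DMSO gaps 0.18, 0.36 and 0.29, so that the groups then overlapped.

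**Figure D5:**
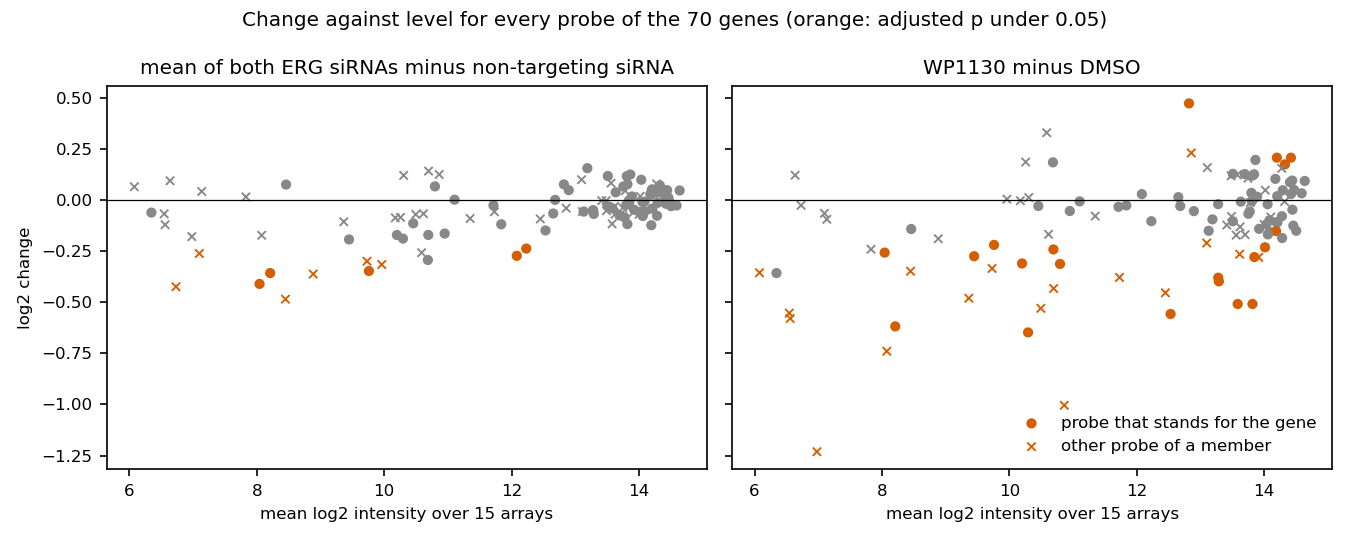
Log2 change against mean log2 intensity for every probe of the 70 genes (circles, the probe that stands for the gene; crosses, other probes), with the ERG siRNAs (left) and WP1130 (right); orange marks an adjusted p under 0.05 in a fit over all probes, which RPS23 did not pass with the ERG siRNAs. The orange points with the ERG siRNAs are all below 0 and lie left of log2 13, and with WP1130 they spread over the whole range of levels.

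Probes of 1 gene did not always move alike with WP1130. Of the 45 other probes of members, 16 were lower and 1 higher, and 11 of the 23 at most log2 11 were lower. Over all probes with a symbol 36.9% were lower, and 36.4% of those at most log2 11. RPL32, which its brightest probe put at −0.11 (adjusted p = 0.14), had a dim probe that read 7.46, 7.47 and 7.46 with DMSO and 6.27, 6.36 and 6.06 with WP1130 (−1.23, adjusted p = 2.5e-07). A further RPL32 probe changed by −0.74 (adjusted p = 8.0e-06). The accessions listed for these probes name different RPL32 transcripts in part. Across the members, level and change had a Pearson r of 0.41 under quantile normalization and 0.74 under median scaling. Ribosomal protein genes have many near-identical pseudogene copies, and 16 of 28 probes annotated to such copies were detected on all 15 arrays (7 over log2 13), so signal cannot be assigned to 1 copy with certainty.

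Of 5 matching genes left out by the detection rule, RPL10, RPL22L1, RPL3L and RPL39L were detected on 0 to 4 arrays. RPL10L, a retrogene of RPL10 known for its role in the testis, was detected on 4 arrays, and these were 3 of 3 with WP1130, 0 of 3 with DMSO and 1 of 3 with ERG siRNA 2. Its raw intensities were 147, 148 and 149 with WP1130 and 108, 121 and 121 with DMSO, where the probe was not well above background. Under quantile normalization its level with WP1130 was at least 2.79-fold that with DMSO. The log2 change before this bound was 1.76 under quantile normalization and 1.26 with no scaling. RPL10L passed the filter of 3 arrays only through the WP1130 arrays, where it was high, so a p-value lends it no support. RPL36AL, a paralog of RPL36A outside the name rule, stood at 0.12 with WP1130 (adjusted p = 0.23) and RPS27L, a paralog of RPS27, at −0.01 (adjusted p = 0.96).

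Other lists of translation genes were set beside the 37.1% of all genes called lower and the 21.9% called higher with WP1130. Of 23 measured translation factors and other genes with TOP mRNAs, 15 fell and 0 rose with WP1130 (median −0.31), among them IPO5 (−0.78), NAP1L1 (−0.77) and PABPC1, the poly(A)-binding protein (−0.70). Of 30 initiation factor genes without a TOP motif, 12 fell and 5 rose (median −0.10), with EIF5 at 1.0, EIF2B2 at 0.96 and ABCE1, which recycles ribosomes, at −0.91. Of 25 genes for ribosomal protein chaperones, importers and late assembly factors, 15 fell and 4 rose (median −0.31), with BYSL at −1.15, TSR1 at −0.98 and ZNF622, which is released from the large subunit late in its assembly, at 0.98. The initiation factor counts lay near these shares of all genes. Under median scaling the 3 lists gave 14, 16 and 19 falls and 0, 4 and 3 rises, and with no scaling 23, 27 and 22 falls and 0 rises each.

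With the ERG siRNAs these lists gave 3 falls and 1 rise, 4 falls and 1 rise, and 2 falls and 0 rises. VIM (−0.36), HNRNPA1 (−0.34) and EIF4B (−0.31) fell and EIF4A2 (0.21) rose among the TOP genes. NOB1, an endonuclease of small subunit assembly, fell by 0.40 (adjusted p = 0.016), and MRTO4 fell by 0.30. Under quantile normalization all 3 lists held a smaller share of calls than the 20.2% of all genes. Median scaling gave them 7, 6 and 4 falls and 0 rises each, against 20.7% of all genes called. The TOP list, with 7 of 23 genes called, then lay above that share. With no scaling the 3 lists gave 1, 0 and 1 falls and 0 rises each, against 11% of all genes called.

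The effect of WP1130 minus that of the ERG siRNAs was below 0 for 9 members and above 0 for 2 at an adjusted p under 0.05 (15.7% against 50.7% of all genes). RPL13A, at −0.47, and RPS23, at −0.46, had the largest negative differences, and RPL7 (0.48) and RPL7L1 (0.40) the positive ones. RPL7 read 10.75, 10.72 and 10.71 with the non-targeting siRNA, 10.17 to 10.60 on the 6 knockdown arrays, 10.60, 11.10 and 10.79 with DMSO and 11.08, 10.84 and 11.11 with WP1130. It was not called in either comparison alone. The DMSO and WP1130 arrays of RPL7 overlapped, while each knockdown array lay below each non-targeting array. Under median scaling the difference was above 0 for 23 members and below 0 for 5, against 57.9% of all genes called, and with no scaling it was below 0 for 43 and above 0 for 0, against 74.6%. Of the 11 genes, RPL22, RPL34 and RPS23 were called in the same direction in all 3 scalings. RPL13A stood at −0.22 (adjusted p = 0.16) under median scaling, and RPL7 at 0.38 (adjusted p = 0.081).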

How the data were processed

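Total RNA of VCaP cells was hybridised to 15 Illumina HumanHT-12 v4 arrays, 3 for each of 5 groups. The deposited table holds, per the file headers, an intensity on a linear scale and a deposited detection p-value for each of 47322 probes per array. A second deposited intensity table holds the authors' processed values, made by steps that the sources used here do not give. The submitters' processing notes list GenomeStudio.

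Intensities were corrected with normexp (offset 16), quantile normalized and log2-transformed by neqc (limma 3.58.1, R 4.3.3). Probes with a detection p under 0.05 on at least 3 arrays were kept (23281), and the brightest probe stood for each of 12744 genes. A 5-group model with empirical Bayes moderation was fitted to all arrays, with two-sided tests, p-values adjusted by Benjamini-Hochberg across every gene, and calls at 0.05. A change is a log2 difference ± SE. Precision is limited by the number of arrays, with a median SE of 0.10 between 2 groups. The bound for RPL10L sets its WP1130 mean against the DMSO mean of, per array, the higher of its own value and the lowest value among detected probes. The pipeline was tested on simulated data.

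Median scaling, no scaling, no background correction, the authors' values (log2 of value plus 16), other filters, the mean of a gene's probes, only the groups compared, a replicate block and leaving out each array were tried. A block for slides was not run, since the labels used here do not give slides. Genes could be named by role, with values per array for up to 6 called rises and 6 called falls of each main comparison, paralogs and their parents, members whose probes disagree, and up to 3 rises and 3 falls of each list. RPL32, RPL8, RPL7 and the level thresholds of log2 11 and 13 were singled out after their values were seen. Members and lists were chosen with earlier results of these data known.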

Additional observations from a re-analysis of the deposited data

Results flagged for a closer look

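The effect of WP1130 differed from the mean effect of the ERG siRNAs in 11 of 70 ribosomal protein genes, by limma's test of the difference itself. Among all genes a larger share was called in this test, 50.7%. That share was 57.9% under median scaling and 74.6% with no scaling. The difference was negative for RPL13A (−0.47), RPS23 (−0.46), RPL22 (−0.41), RPS2 (−0.39), RPL34 (−0.38), RPL4 (−0.33), RPS4X (−0.33), RPL10A (−0.27) and RPS13 (−0.25). It was positive for RPL7L1 (0.40) and RPL7 (0.48). Adjusted p-values ran from 0.0009 (RPS23) to 0.036 (RPS13). Each effect has its own control group. Median scaling called 4 of the 11 in the same direction (RPL22, RPL34, RPL7L1 and RPS23) and no scaling called 9, all but RPL7 and RPL7L1. Under median scaling the other 7 stood between −0.22 (RPL13A, adjusted p = 0.16) and 0.38 (RPL7, adjusted p = 0.081). RPL10A and RPS13 each lost the call in 6 of the 15 fits that left out 1 array, and RPL7 in 5 of 15.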

How the results depend on the processing

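Counts are of the 70 members called. The shares of all genes called under quantile normalization, median scaling and no scaling are given in the Results. For the other settings and the fits without 1 array they are not given, so those counts do not set members apart. With the mean of both ERG siRNAs, 0 higher and 6 lower became 2 and 11 without background correction, 11 lower with median scaling and 1 lower with no scaling, and the median change of −0.025 became −0.117 and −0.084. With siRNA 1, 3 lower became 6 without background correction, 1 with no scaling and 5 with a stricter filter. With siRNA 2, 5 lower became 11 with median scaling, 9 without background correction (with 3 higher) and 0 with no scaling. With WP1130, 4 higher became 19 with median scaling and 0 with no scaling, 18 lower became 59 with no scaling, and the median became 0.038, −0.514 and, with the mean of a gene's probes, −0.082. For DMSO against the non-targeting siRNA, 3 higher became 6 with the mean of probes, 1 with median scaling, 13 without background correction, 1 with no scaling and 7 with a stricter filter, and 4 lower became 1 with the mean of probes and 1 with no scaling. For the difference of effects, 2 higher became 1 with the mean of probes, 23 with median scaling, 4 without background correction and 0 with no scaling, and 9 lower became 5 with median scaling and 43 with no scaling. Signs turned for RPL38 with WP1130 (0.037, median scaling), for RPL7L1 (−0.266 with the mean of probes, −0.030 with no scaling), RPS15 (−0.034 and −0.121), RPS16 (−0.090) and RPS19 (−0.027) with no scaling, and in the difference for RPL7 (−0.208, no scaling) and RPL7L1 (−0.366 and −0.016). Leaving out each array gave 4 to 6 lower for the mean of the ERG siRNAs (median −0.032 to −0.009), 1 to 2 for siRNA 1 (1 without siRNA 1 replicate 1 or non-targeting replicate 2), 3 to 5 for siRNA 2 (3 without siRNA 2 replicate 1 or non-targeting replicate 2), 2 to 4 higher (2 without DMSO replicate 3 or WP1130 replicate 3) and 11 to 16 lower with WP1130 (11 without DMSO replicate 2; median −0.081 to −0.053), 1 to 3 higher and 2 to 3 lower for DMSO (1 and 2 without DMSO replicate 2, 2 lower without DMSO replicate 3), and 1 to 3 higher and 7 to 12 lower for the difference (1 higher without DMSO replicate 1 or 3, WP1130 replicate 1 or non-targeting replicate 1). With the replicate number as a block, 5 members were lower with the ERG siRNAs and 16 with WP1130. Same-numbered arrays correlated at −0.06 to 0.124 in their deviations from group means, so the numbers were not taken as pairs. The cause of these shifts was not tested.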
